A study of Mus musculus with 20 samples.

Results

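The transcripts described here encode mucins of the ocular surface, the large O-glycosylated proteins that coat the cornea and conjunctiva. They were chosen by name from a table of 24411 genes, as *Muc1*, *Muc4*, *Muc5ac*, *Muc15*, *Muc16*, *Muc20* and *Gm9573*, a gene for which RefSeq gives *Muc21* as a synonym. Of these 7 symbols, 6 have a row in the table, and *Muc16* was not analysed here. All 6 passed the filter of at least 5 reads in total that 18807 genes passed, so no mucin with a row was lost.

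RNA from the outer eyecup, that is the retinal pigment epithelium (RPE) and choroid, was sequenced in 20 libraries from C57BL/6 mice, 5 for each of 4 groups. VAS WT and VAS *Stra6-/-* mice were fed a vitamin A sufficient (VAS) diet with 4 IU vitamin A per g for 12 weeks after weaning. VAD WT and VAD *Stra6-/-* mice were fed a vitamin A deficient (VAD) diet with 0 IU per g over the same time. *Stra6* encodes the membrane receptor that takes retinol up from its carrier in blood, and the knockout is germline, so every tissue of the mouse carries it. Per the study's methods a library held both eyecups of 1 mouse, and the cornea, lens, vitreous, muscle and retina were removed. In bulk RNA, fewer cells of a type and less RNA per cell cannot be told apart. Values are gene counts divided by 1 size factor per library, here called normalized values, and libraries held 13331903 to 21878614 reads. The test was limma on the log2(value + 1) scale, fitted to all 4 groups with Benjamini-Hochberg adjustment over the 18807 genes, and a gene was called at an adjusted p under 0.05. Standard errors of log2 fold changes are given as SE. Because of the added 1, the change of a scarce transcript is understated.

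Before the mucins, the labels were checked against the targeted gene. *Stra6* had normalized values of 2414 to 2742 in VAS WT and 564 to 694 in VAS *Stra6-/-*. It lay at 1973 to 2393 in the libraries labelled VAD *Stra6-/-*, so by its level alone *Stra6* does not follow the label there. The sum of 6 RPE genes, named as a set below, was also highest there, at 434934 to 470222. It was 91810 to 106388 in VAS WT and 99613 to 104840 in VAS *Stra6-/-*. The libraries labelled VAD WT had 693, 697 and 669 in replicates 1, 3 and 5, which is at the level of the VAS *Stra6-/-* libraries, and 1340 and 1529 in replicates 2 and 4. By level alone, *Stra6* thus does not set the first 3 apart from the VAS *Stra6-/-* libraries. The sum of the RPE genes was lower in VAD WT, however, at 24667 to 48328. *Stra6* relative to RPE genes was not tested. Every direction that rests on either VAD group carries these limits, and VAD WT is used below as the name on the label. Replicates 2 and 4 of VAD WT stood apart from replicates 1, 3 and 5. The X-inactivation transcript *Xist* was 10912 and 11767 in replicates 2 and 4 and 174 to 234 in the other VAD WT libraries, 7.69 to 38.4 in VAS WT, 15320 to 18052 in VAS *Stra6-/-* and 3570 to 4280 in the libraries labelled VAD *Stra6-/-*. The Y-linked gene *Ddx3y* was 75.2 and 80.5 in VAD WT replicates 2 and 4 and 1041 to 1133 in the others, 981 to 1193 in VAS WT, 0 to 1.02 in VAS *Stra6-/-* and 741 to 970 for VAD *Stra6-/-* as labelled. Every one of these last libraries thus held both transcripts in number, although the methods give 1 mouse per library. Sex-linked transcripts and the group cannot be told apart between the VAS groups, nor between the diets in the *Stra6-/-* groups as labelled. Values without VAD WT replicates 2 and 4 are given beside most mucin results on VAD WT. The gene lists were tested only with all VAD WT libraries.

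All 6 RPE genes checked had reads in every library, though *Best1* was scarce at 7.09 to 44.6. Their summed normalized value was 91810 to 106388 in VAS WT, 24667 to 48328 in VAD WT, 99613 to 104840 in VAS *Stra6-/-* and 434934 to 470222 in the libraries labelled VAD *Stra6-/-*. Genes of stratified surface epithelium were present as well, with higher sums than the RPE genes in all groups but the last. The sum of 10 such genes (*Krt5*, *Krt14*, *Krt15*, *Krt6a*, *Trp63*, *Col17a1*, *Perp*, *Sfn*, *Cdh1* and *Epcam*) was 436163 to 493131 in VAS WT, 252177 to 574783 in VAD WT, 568180 to 596103 in VAS *Stra6-/-* and 24829 to 30732 in the libraries labelled VAD *Stra6-/-*. None of these marker genes was at 0 throughout a group.

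Surface mucins fall into 2 classes. Membrane-tethered mucins such as MUC1, MUC4, MUC15, MUC16, MUC20 and the product of *Gm9573* stand on the apical cells and build the glycocalyx, which holds the tear film and blocks pathogens. MUC5AC is secreted by conjunctival goblet cells and forms the gel of the tears. Vitamin A deficiency is known for keratinization of the conjunctiva and cornea and for loss of goblet cells.

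In mucins the hydroxyl groups of serine and threonine carry the O-glycans. The sequence trait that makes a mucin is a stretch rich in serine, threonine and proline, often laid out as tandem repeats. Codons for these 3 residues made up 69.1% of the longest *Gm9573* coding sequence, 44.8% of *Muc4*, 44.1% of *Muc1*, 43.5% of *Muc20*, 34.1% of *Muc15* and 31.2% of *Muc5ac*, against a median of 18.7% over 20984 genes. Neighbouring repeat copies are shown for the mucin with the most repeats, the secreted mucin and the mucin whose copies differ most among these 3. Capitals in each second copy mark bases that differ from the first. The *Gm9573* copies lie at chr17:35621943-35622122 (minus strand, GRCm38), those of *Muc5ac* at chr7:141808648-141808839 (plus strand) and those of *Muc1* at chr3:89230429-89230554 (plus strand), each within 1 coding exon.
Gm9573 copy 1: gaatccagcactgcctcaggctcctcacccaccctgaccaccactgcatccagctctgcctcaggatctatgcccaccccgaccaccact
Gm9573 copy 2: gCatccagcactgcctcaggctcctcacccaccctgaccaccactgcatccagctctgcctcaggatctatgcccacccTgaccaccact
Muc5ac copy 1: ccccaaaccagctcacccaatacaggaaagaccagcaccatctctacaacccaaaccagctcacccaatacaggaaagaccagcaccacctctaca
Muc5ac copy 2: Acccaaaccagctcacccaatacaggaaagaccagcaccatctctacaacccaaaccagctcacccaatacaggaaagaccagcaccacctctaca
Muc1 copy 1: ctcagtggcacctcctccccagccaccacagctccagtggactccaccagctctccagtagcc
Muc1 copy 2: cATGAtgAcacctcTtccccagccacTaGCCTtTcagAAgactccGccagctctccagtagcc
In *Gm9573* the 90-base copies matched at 88 of 90 bases, and repeats of this period covered 91.2% of the coding sequence. The 96-base copies of *Muc5ac* matched at 95 of 96 bases and covered 12.2%, and the 63-base copies of *Muc1* matched at 48 of 63 bases and covered 12.4%. In *Muc15* no stretch passed the repeat threshold. Reads from such copies fit several places of the same gene, and how the counting treated them was not tested.

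Promoter sequence is shown for the 4 measured mucins that had an entry in the RefSeq promoter table (GRCm38.p6), because these transcripts moved together in part. The 130 bases before the start site are printed, with matches to the searched motifs in capitals. *Muc1* is at chr3:89228926-89229055 (plus strand), *Muc4* at chr16:32735756-32735885 (plus strand), *Muc20* at chr16:32797436-32797565 (minus strand) and *Gm9573* at chr17:35626638-35626767 (minus strand).
Muc1: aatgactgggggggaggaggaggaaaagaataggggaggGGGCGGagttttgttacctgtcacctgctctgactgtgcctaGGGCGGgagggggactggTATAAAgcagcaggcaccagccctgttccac
Muc4: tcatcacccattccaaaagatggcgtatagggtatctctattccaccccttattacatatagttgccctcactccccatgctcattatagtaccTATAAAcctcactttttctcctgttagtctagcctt
Muc20: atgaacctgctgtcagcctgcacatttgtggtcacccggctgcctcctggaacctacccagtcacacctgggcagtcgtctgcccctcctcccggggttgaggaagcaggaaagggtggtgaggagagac
Gm9573: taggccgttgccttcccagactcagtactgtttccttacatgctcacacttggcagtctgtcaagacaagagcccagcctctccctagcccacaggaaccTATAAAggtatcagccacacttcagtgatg
The TATA box letters TATAAA began 31 bases before the start of *Muc1*, 36 before *Muc4* and 30 before *Gm9573*, and were not in the *Muc20* window. Over all 32851 promoters, 12.4% of the 250-base windows before the start held TATAAA on either strand. The GC box letters GGGCGG occurred 2 times in *Muc1* and, farther upstream than the printed bases, 1 time in *Gm9573*, against 32.7% of all windows. Both strands were searched and no motif contains another. The retinoic acid receptor half-site letters AGGTCA were in none of the 4 windows, against 14% of all windows. The same held for the KLF-type letters CACACCC (6.93% of all windows) and the ETS-type letters GGAAGT (19.7%). It held too for the AP-1 letters TGACTCA (4.46%). Such matches describe letters only.

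*Muc4* and *Muc20* are neighbours on opposite strands of chromosome 16. *Muc4* runs from 32735886 to 32782391 and *Muc20* from 32777419 to 32797435 (GRCm38), and their 3' ends overlap over 4973 bases, of which 627 are exonic in both. That is 5.33% of the exonic bases of *Muc4* and 15.6% of those of *Muc20*. The sources used here do not say that counting used strand, so the split of reads in this overlap is uncertain, for *Muc20* above all.

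Membrane-tethered mucins were abundant in this tissue preparation and the secreted mucin was scarce. Divided by exonic length, the normalized value per kb in VAS WT was 2390 ± 118 (SD, n = 5) for *Muc4*, 1377 ± 134 for *Gm9573*, 1140 ± 39.0 for *Muc1*, 819 ± 52.5 for *Muc20*, 170 ± 12.6 for *Muc15* and 1.41 ± 0.793 for *Muc5ac*. In that group the ranges of *Gm9573* and *Muc1* overlapped and those of the other neighbours in the order did not. In VAD WT the order was *Muc4* (1219 ± 443 per kb), *Gm9573* (1155 ± 518), *Muc20* (427 ± 141), *Muc1* (278 ± 59.8), *Muc15* (233 ± 118) and *Muc5ac* (2.71 ± 3.16), and the ranges of all neighbours but *Gm9573* and *Muc20*, and *Muc15* and *Muc5ac*, overlapped. Without replicates 2 and 4 the order of the means was the same, at 1542, 1533, 527, 319, 314 and 0.484 per kb. In VAS *Stra6-/-* it was *Muc4* (3221 ± 183 per kb), *Gm9573* (2610 ± 273), *Muc1* (874 ± 52.3), *Muc20* (802 ± 57.0), *Muc15* (248 ± 30.3) and *Muc5ac* (3.69 ± 1.12), with overlap only of *Muc1* and *Muc20*. In the libraries labelled VAD *Stra6-/-* *Muc1* stood first at 38.5 ± 12.8 per kb, before *Muc4* at 32.7 ± 4.35, *Gm9573* at 22.0 ± 4.24, *Muc20* at 14.0 ± 4.66, *Muc15* at 8.52 ± 3.14 and *Muc5ac* at 0.0331 ± 0.0453, and the ranges of *Muc4* and *Gm9573* and of *Muc15* and *Muc5ac* did not overlap.

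Libraries labelled VAD WT had lower levels of 3 membrane-tethered mucins than VAS WT. *Muc1*, *Muc4* and *Muc20* fell and no mucin rose, while *Muc15*, *Gm9573* and *Muc5ac* were not called. In this comparison 8.78% of all genes were called, and 5.50% were called lower. These 3 mucins were also the ones whose VAD WT libraries all lay below the VAS WT libraries, which held for 4.21% of all genes. The median log2 fold change of the 6 mucins was -0.83 (-0.63 without VAD WT replicates 2 and 4), against 0.00 over all genes tested. Without VAD WT replicates 2 and 4, 5 mucins were called, with *Muc15* higher and *Muc5ac* lower in addition to these 3, while 37.9% of all genes were called. With replicates 2 and 4 as the only VAD WT libraries, a choice made after seeing the data, 5 were called as well, with *Gm9573* lower and *Muc5ac* higher in addition, while 32.8% of all genes were called.

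On the VAS diet, *Stra6-/-* mice differed from WT mice in 1 mucin by this fit, *Gm9573*, which rose. The share of all genes called was 26.6%, with 15.9% called higher. The median log2 fold change of the mucins was 0.49, against 0.02 over all genes. In 5 of 6 mucins the groups did not overlap, with *Muc4*, *Muc5ac*, *Muc15* and *Gm9573* higher and *Muc1* lower in VAS *Stra6-/-*. Groups without overlap were found in the higher direction for 19.3% and in the lower direction for 13.2% of all genes. With only these 2 groups in the fit, all 5 of these mucins were called, and *Muc20* was not, while 43.6% of all genes were called. The spread that the main fit shares over all groups includes the split within VAD WT.

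The libraries labelled VAD *Stra6-/-* had low values of all mucins. All 6 fell against VAS *Stra6-/-*, where 53.2% of all genes were called and 28.8% called lower, and all 6 fell against VAD WT, where 55.9% were called and 29.6% called lower. A log2 fold change below -2 with a call was reached by all 6 mucins in both comparisons, against 7.40% of all genes in the first and 6.86% in the second. The median of the mucins was -5.40 in the first comparison, against -0.07 over all genes, and -4.78 in the second (-5.26 without VAD WT replicates 2 and 4), against -0.05. Leaving out *Muc5ac*, which had 2 reads in these libraries, the medians were -5.87 and -4.89. The groups did not overlap for 6 of 6 mucins in the first and for 5 of 6 in the second, against 26.8% and 19.0% of all genes with lower values and no overlap. Both comparisons share the same 5 low libraries, so they are not independent.

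The difference between the diet effects in the 2 genotypes, the interaction, was called for all 6 mucins, each with a more negative diet effect in the *Stra6-/-* groups as labelled. The log2 interaction was -2.48 (SE 0.22, adjusted p = 8.40e-09, limma) for *Muc1* and -6.50 (SE 0.34, adjusted p = 1.69e-12, limma) for *Gm9573*, the smallest and the largest. Over all genes 44.2% were called for the interaction, 24.8% in the negative direction. Without VAD WT replicates 2 and 4 the interaction of all 6 mucins was called as well, from -2.42 for *Muc5ac* (adjusted p = 0.0343, limma) and -2.70 for *Muc1* to -7.05 for *Gm9573*, with 54.7% of all genes called.

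**Figure D1:**
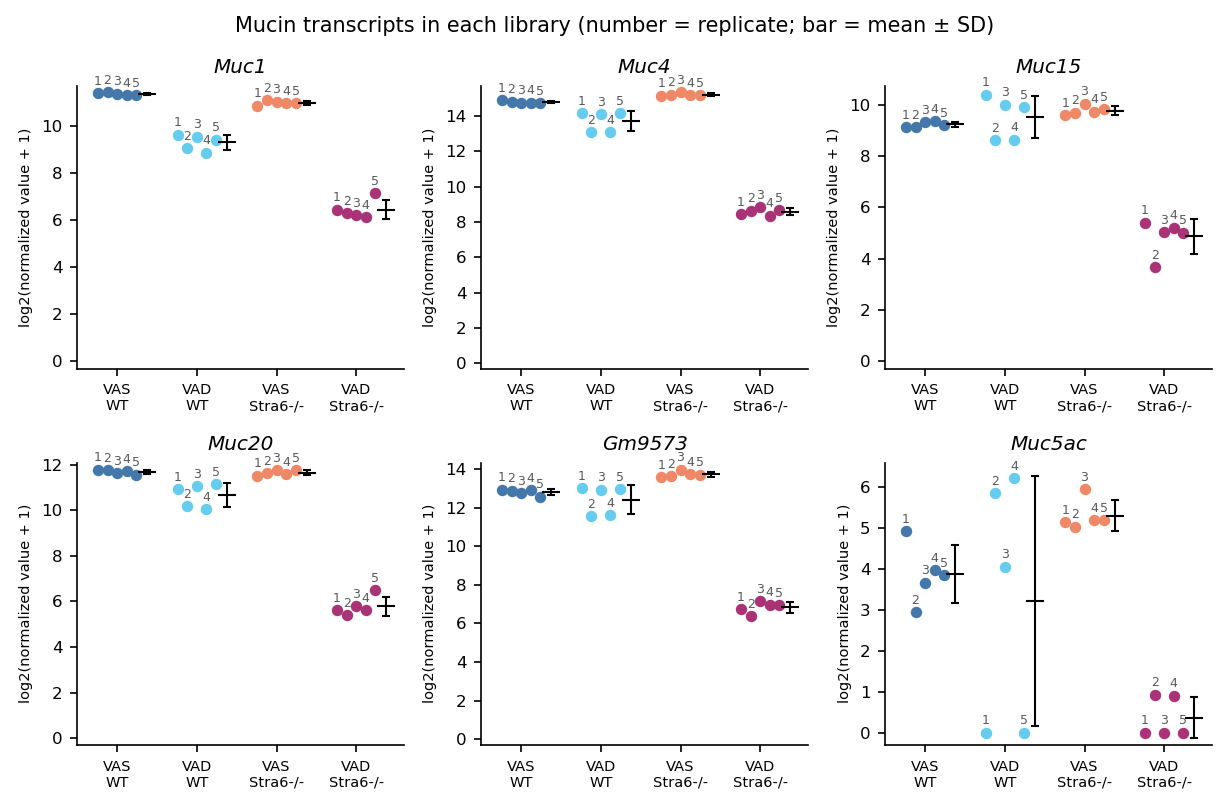
Normalized values on the log2(value + 1) scale (y axis) for each mucin in the 4 groups (x axis), with 1 point per library, the replicate number above it and a bar for the mean ± SD of 5 libraries. VAD WT replicates 2 and 4 lie below replicates 1, 3 and 5 in every panel but *Muc5ac*, where they lie above, and the libraries labelled VAD *Stra6-/-* are lowest for all mucins, with *Muc5ac* at 0 in VAD WT replicates 1 and 5 too.

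*Muc1* encodes a widely expressed tethered mucin with a signalling tail. Its normalized values in replicates 1 to 5 were 2724, 2788, 2694, 2586 and 2574 in VAS WT and 803, 542, 752, 472 and 688 in VAD WT. They were 1884, 2209, 2123, 2008 and 2031 in VAS *Stra6-/-* and 86.6, 78.5, 73.7, 69.3 and 143 in the libraries labelled VAD *Stra6-/-*. All VAD WT libraries lay below all VAS WT libraries, and no pair of groups overlapped. *Muc1* fell by 2.06 on the log2 scale in VAD WT (SE 0.16, adjusted p = 1.36e-08, limma), the largest change of a mucin there. Without replicates 2 and 4 the log2 fold change was -1.84, and with them alone it was -2.40, so the fall was present in both sets of libraries. The difference of -0.38 between VAS *Stra6-/-* and VAS WT was not called (adjusted p = 0.0776, limma), while with these 2 groups alone it was (adjusted p = 5.03e-05). *Muc1* fell by 4.54 in the libraries labelled VAD *Stra6-/-* against VAS *Stra6-/-* (SE 0.16, adjusted p = 7.79e-16, limma) and by 2.86 against VAD WT (SE 0.16, adjusted p = 1.62e-12, limma). Without VAD WT replicates 2 and 4 the latter was -3.09.

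*Muc4* encodes the longest of the measured tethered mucins, a glycocalyx component that can bind the receptor ERBB2. In VAS WT its normalized values were 30275, 28560, 27507, 27465 and 26673, and in VAD WT 18410, 8578, 17483, 8728 and 18481. In VAS *Stra6-/-* they were 36031, 37507, 41576, 37242 and 36961, and in the libraries labelled VAD *Stra6-/-* 345, 398, 452, 324 and 404. Replicates 2 and 4 of VAD WT were the low ones of that group, yet all VAD WT libraries lay below VAS WT, and no groups overlapped. *Muc4* fell by 1.06 on the log2 scale in VAD WT (SE 0.18, adjusted p = 5.41e-04, limma). The change was -0.63 without replicates 2 and 4, -1.70 with them alone, and lost its call with only the 2 WT groups in the fit (adjusted p = 0.0554, limma). In VAS *Stra6-/-* the log2 difference of 0.43 was not called (adjusted p = 0.0860, limma), and with the 2 VAS groups alone it was (adjusted p = 3.77e-05). Against VAS *Stra6-/-* the libraries labelled VAD *Stra6-/-* were lower by 6.63 (SE 0.18, adjusted p = 2.06e-17, limma).

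*Muc20* encodes a small tethered mucin that binds the hepatocyte growth factor receptor MET. Values were 3512, 3468, 3141, 3340 and 3020 in VAS WT and 1931, 1168, 2155, 1066 and 2281 in VAD WT. VAS *Stra6-/-* had 2947, 3169, 3475, 3099 and 3452, and the libraries labelled VAD *Stra6-/-* had 48.4, 41.5, 54.3, 48.3 and 88.8. VAD WT lay wholly below VAS WT, and the 2 VAS groups overlapped. *Muc20* fell by 1.01 on the log2 scale in VAD WT (SE 0.19, adjusted p = 0.00168, limma), with -0.64 without replicates 2 and 4 and -1.56 with them alone. Between VAS *Stra6-/-* and VAS WT the difference was -0.03 (SE 0.19, adjusted p = 0.937, limma). Along the 20 libraries *Muc20* and its overlapping neighbour *Muc4* had a Pearson correlation of 0.995 on the log2 scale, the highest of the 15 pairs of mucins, and all points share the groups.

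*Gm9573* was the mucin that separated the VAS groups most clearly. It had normalized values of 7804, 7581, 6889, 7630 and 6110 in VAS WT and 12336, 12682, 15978, 13814 and 13448 in VAS *Stra6-/-*. In VAD WT it had 8194, 3046, 7838, 3109 and 8033, and in the libraries labelled VAD *Stra6-/-* 106, 82.1, 140, 125 and 123. Every VAS *Stra6-/-* library exceeded every library of the other groups, while VAD WT replicates 2 and 4 lay below VAS WT and replicates 1, 3 and 5 above it. *Gm9573* rose by a log2 fold change of 0.92 in VAS *Stra6-/-* (SE 0.24, adjusted p = 0.00593, limma). Of the 10 surface epithelium genes 6 rose in the same comparison and 1 fell, with a median of 0.67. That is a share of 70%, against 26.6% of all genes called. The difference of *Gm9573* relative to the surface epithelium genes was 0.29 and not called (adjusted p = 0.0726, limma). In VAD WT the change of -0.39 was not called (adjusted p = 0.364, limma), with 0.16 without replicates 2 and 4 (adjusted p = 0.330) and -1.22 with them alone (adjusted p = 4.48e-06). It fell by 6.89 in the libraries labelled VAD *Stra6-/-* against VAS *Stra6-/-* (SE 0.24, adjusted p = 7.34e-16, limma), the largest fall of a mucin.

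*Muc15* encodes a comparatively small tethered mucin. VAS WT had values of 562, 566, 645, 659 and 594, and VAD WT had 1357, 398, 1032, 401 and 968. VAS *Stra6-/-* had 777, 832, 1059, 851 and 912, and the libraries labelled VAD *Stra6-/-* had 41.3, 11.7, 31.7, 36.0 and 31.3. Here too replicates 2 and 4 of VAD WT lay below all VAS WT libraries, and the other VAD WT libraries above them. With all libraries *Muc15* differed by 0.29 on the log2 scale in VAD WT (SE 0.31, adjusted p = 0.652, limma). Without replicates 2 and 4 the difference was 0.87 and was called (adjusted p = 0.00963), opposite in sign to *Muc1*, *Muc4* and *Muc20* in the same libraries. With replicates 2 and 4 alone it was -0.60 (adjusted p = 0.143). *Muc15* fell by 4.92 in the libraries labelled VAD *Stra6-/-* against VAS *Stra6-/-* (SE 0.31, adjusted p = 1.62e-11, limma).

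*Muc5ac*, the gel-forming mucin of goblet cells, was near the detection limit and had the largest spread. Normalized values were 29.5, 6.73, 11.7, 14.6 and 13.4 in VAS WT and 0, 56.7, 15.6, 73.6 and 0 in VAD WT. VAS *Stra6-/-* had 34.5, 31.8, 61.0, 35.5 and 35.6, and the libraries labelled VAD *Stra6-/-* had 0, 0.902, 0, 0.878 and 0. VAD WT replicates 2 and 4 held the highest values of that group and replicates 1 and 5 had no read, where up to 3 reads, or values of 3.54 and 3.90, are allowed by counting error. The diet difference in WT was -0.65 on the log2 scale (SE 0.93, adjusted p = 0.744, limma), -2.52 without replicates 2 and 4 (adjusted p = 0.00776) and 2.16 with them alone (adjusted p = 0.00212). The libraries labelled VAD *Stra6-/-* held 2 *Muc5ac* reads in all, against 203 in VAS *Stra6-/-*, 152 in VAD WT and 79 in VAS WT. Corrected for size factors, the ratio of VAS *Stra6-/-* to these libraries was 107 (exact 95% interval 29.2 to 888, counting error only) over all 5 of them, and 87.2 (23.8 to 725) without replicate 1, whose reads are less surely recovered. The fitted fall against VAD WT, 2.86 on the log2 scale (adjusted p = 0.0122, limma), lost its call without VAD WT replicates 2 and 4 (-0.98, adjusted p = 0.239), and these groups overlapped.

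**Figure D2:**
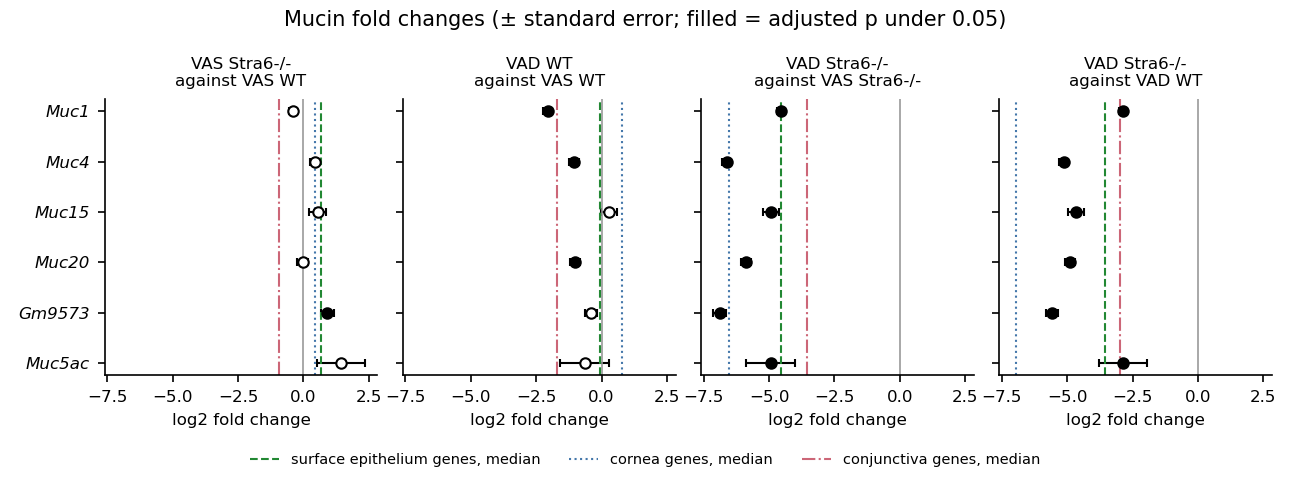
Log2 fold change ± standard error (x axis) of each mucin (y axis) in the 4 comparisons, filled where the adjusted p was under 0.05, with vertical lines at the median fold change of surface epithelium, cornea and conjunctiva genes. In VAD WT against VAS WT, *Muc1* at -2.06 lies nearest to the conjunctiva line at -1.70, and in both comparisons of the libraries labelled VAD *Stra6-/-* all mucins lie left of -2.

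Keratins that mark the epithelia of the ocular surface moved beside the mucins. In VAD WT, where 5.50% of all genes were called lower, the conjunctival genes *Krt4*, *Krt13* and *Krt19* fell, 3 of 3. The falls were 1.89, 1.01 and 1.70 on the log2 scale. The summed normalized value of these 3 genes was 93659 to 104841 in VAS WT, 29577 to 44866 in VAD WT, 57050 to 60498 in VAS *Stra6-/-* and 4644 to 6824 in the libraries labelled VAD *Stra6-/-*. They fell in VAS *Stra6-/-* as well, 3 of 3, with *Krt19* at -1.16, where 26.6% of all genes were called. *Muc4* and *Gm9573* had positive differences in that comparison. Of the corneal genes *Krt12*, *Aldh3a1*, *Slurp1* and *Lypd2*, limma called 0 of 4 in VAD WT (2 at an unadjusted p under 0.05, 2 by edgeR and 3 by DESeq2) and 0 of 4 in VAS *Stra6-/-* (2, 0 and 1). Over all genes limma called 8.78% and 26.6%. In the libraries labelled VAD *Stra6-/-* 4 of 4 fell, with *Krt12* at -6.62 against VAS *Stra6-/-*, where 28.8% of all genes were called lower. The corneal sum was 272910 to 363391 in VAS WT, 211375 to 723145 in VAD WT, 471023 to 491875 in VAS *Stra6-/-* and 7354 to 10195 in the libraries labelled VAD *Stra6-/-*. *Krt12* was 114762 and 113908 in VAD WT replicates 2 and 4 and 381262 to 400653 in the other VAD WT libraries, whereas *Krt4* was 10678 to 12018 in all 5. The part of these epithelial genes in the mucin results was not tested.

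To set the mucins beside other surface epithelium genes of the same library, the mean log2 value of the 10 genes named above was subtracted from every gene and the same fit was made. On this scale the median of all genes moved to 0.08 in VAD WT, to -0.62 in VAS *Stra6-/-*, to 4.38 in the libraries labelled VAD *Stra6-/-* against VAS *Stra6-/-* and to 3.67 against VAD WT, so a value is to be read as a distance from epithelial genes. In VAD WT *Muc1* was lower by 1.98 (adjusted p = 2.17e-07), *Muc4* by 0.97 (adjusted p = 1.58e-06) and *Muc20* by 0.92 (adjusted p = 4.33e-04, limma), where 3.85% of all genes were called, 1.35% in the lower direction. Without VAD WT replicates 2 and 4 these differences were -2.16, -0.95 and -0.96, each called. *Muc4* relative to the marker mean was -0.05 ± 0.04 (SD, n = 5) in VAD WT and 0.92 ± 0.09 in VAS WT, so for *Muc4* the split between the VAD WT libraries was small on this scale, from -0.10 to 0.01. *Gm9573* in VAD WT replicates 2 and 4 was still at -1.56 and -1.59, against -1.23 to -1.20 in replicates 1, 3 and 5. The same replicates also stayed apart for *Muc1*, *Muc15* and *Muc5ac*, and for *Muc20* they overlapped with the others. *Muc1* in VAD WT lay at -4.45 ± 0.27 against -2.47 ± 0.08 in VAS WT.

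Between the VAS groups *Muc1* was lower in *Stra6-/-* by 1.02 (adjusted p = 3.55e-05) and *Muc20* by 0.67 (adjusted p = 7.61e-04, limma) relative to the markers, where 43.7% of all genes were called, 42.5% in the lower direction. In the libraries labelled VAD *Stra6-/-* against VAS *Stra6-/-*, *Muc4* was lower by 2.18, *Muc20* by 1.42 and *Gm9573* by 2.45 than the epithelial genes, while *Muc1* differed by -0.10 (adjusted p = 0.546, limma). Over all genes 98.0% were called there, 0.984% lower and 97.0% higher. Against VAD WT, 5 mucins were called, with *Muc1* at 0.86 and *Muc4*, *Muc15*, *Muc20* and *Gm9573* at -1.41, -0.94, -1.17 and -1.85 (1.04, -1.43, -1.12 and -1.13 for the first 4 without VAD WT replicates 2 and 4), where 96.9% of all genes were called, 1.11% lower and 95.8% higher. These directions depend on the reference genes. With the 4 corneal genes as reference *Muc4* against VAD WT was 1.42 and *Gm9573* was 0.97, and with the 3 conjunctival genes *Muc4* in VAD WT was 0.48 against VAS WT. *Muc1* in VAD WT was lower with each reference, at -2.81 with corneal and -0.53 with conjunctival genes.

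**Figure D3:**
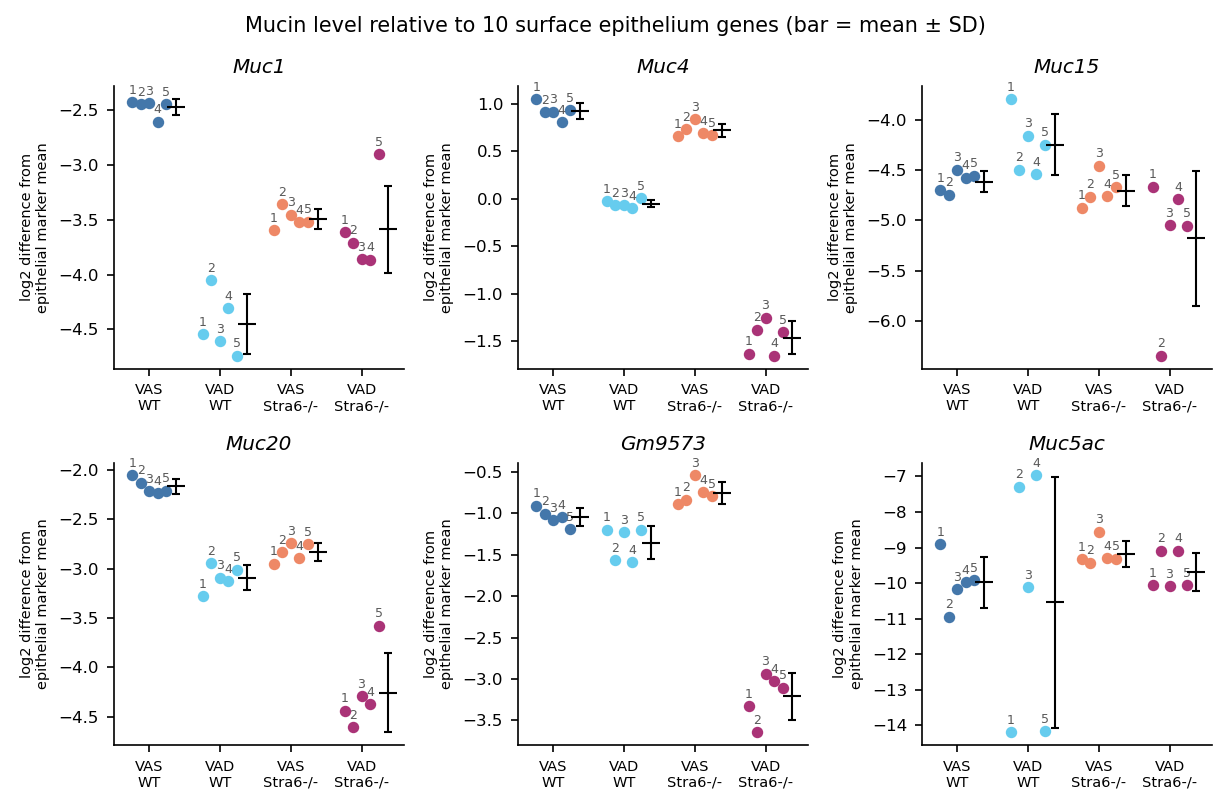
Difference between each mucin and the mean of 10 surface epithelium genes in the same library (y axis, log2) for the 4 groups (x axis), with 1 point per library, replicate numbers and the mean ± SD of 5 libraries. *Muc4* in VAD WT forms a tight set at -0.05 ± 0.04 between VAS WT and the libraries labelled VAD *Stra6-/-*, and *Muc1* in VAD WT is the lowest group of that panel.

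Mucins are glycosylated by GALNT enzymes, which start O-glycans, and by enzymes that extend, branch or cap them. Of 26 such genes, 0 rose and 3 fell in VAD WT, namely *St3gal1* by 0.88, the initiating enzyme *Galnt3* by 0.48 and *Galnt7* by 0.34 on the log2 scale, with a list median of -0.13 against 0.00 over all genes. The 3 called are 11.5% of the list, where 8.78% of all genes were called. Of the same genes 8 rose and 2 fell in VAS *Stra6-/-*, a share of 38.5%, against 26.6% of all genes called. *C1galt1*, the core 1 synthase, was at 1.25, *Galnt2* at 0.63, *Galnt1* at 0.60, *Galnt16* at -0.55 and *Galnt10* at -0.32. Against VAS *Stra6-/-*, 7 rose and 8 fell in the libraries labelled VAD *Stra6-/-*. *St6galnac1*, a sialyltransferase that caps O-glycans, fell, at -5.64, as did *Galnt3* at -4.72 and *B3gnt6* at -3.90, while *Galnt5* rose by 2.64, *Galnt10* by 1.74 and *Gcnt1* by 1.38. Against VAD WT, 8 rose and 9 fell, with *St6galnac1* at -5.63, *Galnt3* at -3.66, *Galnt18* at -3.01, *Galnt5* at 2.67, *St3gal1* at 2.01 and *Galnt10* at 1.77. The list medians in the last 2 comparisons were -0.15 and 0.07, against -0.07 and -0.05 over all genes, and the second was -0.24 without *Gcnt3*, which had no read in VAD WT. The shares called, 57.7% and 65.4% of the list, lie near the 53.2% and 55.9% of all genes called.

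**Figure D4:**
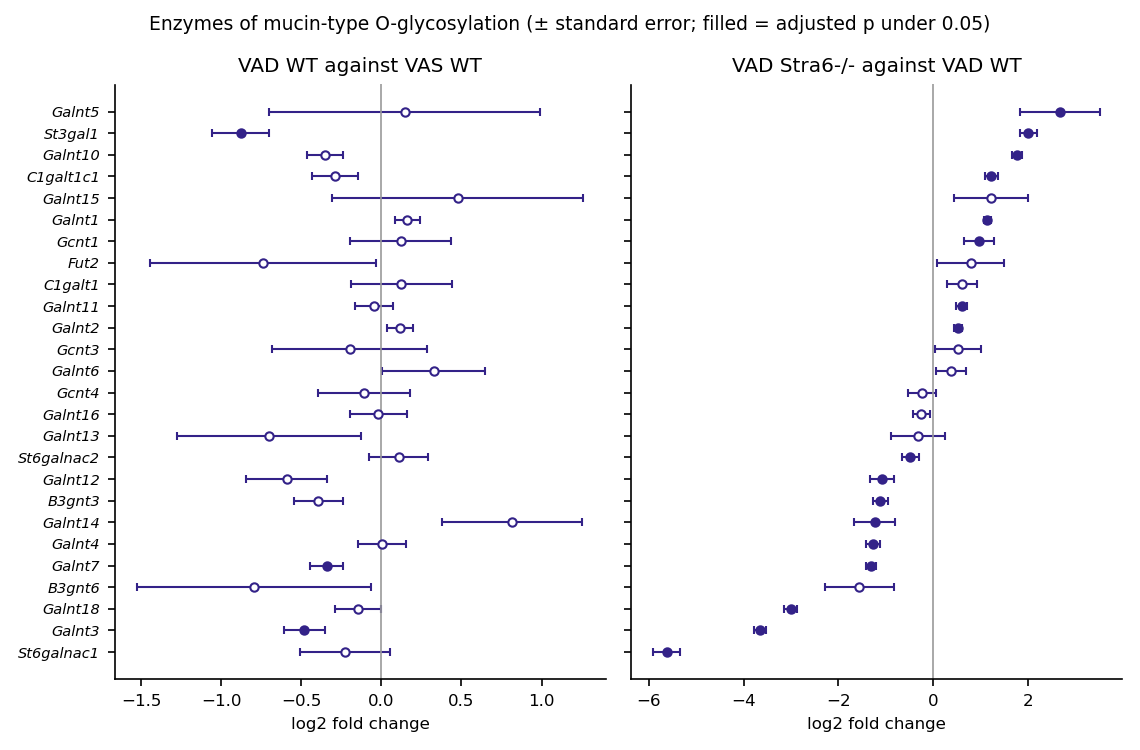
Log2 fold change ± standard error (x axis) of 26 O-glycosylation genes (y axis, ordered by the right panel) in VAD WT against VAS WT and in the libraries labelled VAD *Stra6-/-* against VAD WT, filled where the adjusted p was under 0.05. In the left panel 3 genes fell and none rose, and in the right panel 9 fell, led by *St6galnac1* at -5.63, and 8 rose.

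Goblet cell genes other than *Muc5ac* had a sum over 8 genes of 629 to 718 in VAS WT, 445 to 885 in VAD WT, 964 to 1164 in VAS *Stra6-/-* and 26.2 to 40.6 in the libraries labelled VAD *Stra6-/-*. Most of this sum in the VAS groups was *Fcgbp*, at 461 ± 39.4 (SD, n = 5) in VAS WT and 959 ± 68.0 in VAS *Stra6-/-*. *Agr2* had a mean of 166 and 78.0 there, with no overlap of the libraries, as for 13.2% of all genes in the lower direction. The log2 fold change of *Agr2*, -1.11, was not called (adjusted p = 0.0966, limma). Each of the other 6 had a mean of at most 22.2 in every group. limma and edgeR called 0 of the 8 in VAD WT, DESeq2 called 1, and 1 had an unadjusted p under 0.05 by limma. Between the VAS groups *Fcgbp*, a secreted partner of gel mucins, rose by 1.06 in *Stra6-/-* and the goblet cell gene *Clca1* fell by 1.32. The share called there was 25% of the list, near the 26.6% of all genes called. In the libraries labelled VAD *Stra6-/-* 4 of 8 fell against VAS *Stra6-/-*, among them *Fcgbp* at -5.84 and *Agr2*, which helps to fold mucins, at -3.95, and 4 of 8 against VAD WT, with *Fcgbp* at -4.84 and *Agr2* at -4.14. The share called, 50% of the list in both comparisons, lies near the 53.2% and 55.9% of all genes called. Of all genes, 28.8% and 29.6% were called lower. *Clca1* had no read in any of these 5 libraries, which with a limit of 3 reads per library makes it at least 3.09-fold lower than in VAS *Stra6-/-*. The list median against VAS *Stra6-/-* was -1.52, and -0.73 with *Clca1* and *Tff1*, which had no read there, at their bounds. Leaving out *Tff3* as well, with 2 reads in one group and 0 in the other, it was -0.97.

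Among the partners of tethered mucins, *Lgals3*, the lectin that cross-links the glycocalyx, fell by 1.74 and 1.80 in the libraries labelled VAD *Stra6-/-* against VAS *Stra6-/-* and VAD WT. Of 6 such genes 1 fell in VAD WT, *Slc9a3r1* by 0.34. In VAS *Stra6-/-* 3 rose, with the membrane linker *Ezr* at 0.88, *Slc9a3r1* at 0.46 and *Rdx* at 0.30. The shares called were 16.7% and 50%, against 8.78% and 26.6% of all genes. In the libraries labelled VAD *Stra6-/-*, 3 of the 6 rose and 2 fell against VAS *Stra6-/-*, and 4 rose and 1 fell against VAD WT. The share called was 83.3% in both, against 53.2% and 55.9% of all genes. *Msn*, a linker of the *Ezr* family, rose by 1.21 and 1.33 in these comparisons. *Slc9a3r1* rose by 0.79 and 1.58, and *Rdx* by 0.42 and 0.70. Transcription factors of surface epithelium followed the mucins in the large fall. All 7 of 7 fell in both comparisons, where 28.8% and 29.6% of all genes were called lower. *Grhl2* was at -6.61, *Grhl3* at -5.82 and *Ehf* at -5.52 against VAS *Stra6-/-*. Of these factors 4 of 7 rose in VAS *Stra6-/-*, where 15.9% of all genes were called higher. They were led by *Klf4* at 1.46, *Grhl3* at 0.93 and *Klf5* at 0.83. In VAD WT limma called 0 of 7 (2 at an unadjusted p under 0.05, 1 each by edgeR and DESeq2). There 8.78% of all genes were called, and *Muc1*, *Muc4* and *Muc20* fell.

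Among 15544 genes with a mean value of at least 10, those with the pattern most like each mucin were named by Pearson correlation over the 20 libraries, which share their groups. For *Muc1* these were *Krt17* (0.993), *Cd24a* (0.992) and *Itgam* (0.989), and for *Muc4* *Plet1* (0.998), *Capn5* (0.998) and *Galnt3* (0.997). *Muc20* was nearest to *Adgrf1*, *Fam84a* and *Emp2* (each 0.997), *Muc15* to *Fgfbp1* (0.994), *Esrp1* (0.993) and *Anxa8* (0.991), and *Gm9573* to *Tmprss11g* (0.999), *Ehf* (0.997) and *AI661453* (0.997). The genes nearest to *Muc5ac* were *Tnik* (0.961), *Tnfaip3* (0.925) and *N4bp2* (0.922), a looser likeness. Among the mucins themselves *Muc5ac* correlated with the others at 0.610 to 0.701 and the other 10 pairs lay between 0.887 and 0.995.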

How the data were processed

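RNA-seq data of 20 mouse outer eyecup libraries were used, 5 per group, grouped by genotype and diet as labelled. Per the labels, the authors used STAR 2.5.3a, RSEM 1.2.30 and DESeq2 1.32.0 with GRCm38/mm10, and the deposited values are a signal, gene counts divided by 1 size factor per library, with no length or log scaling. Values were whole multiples (within 0.01) of 1 read in all libraries. edgeR and DESeq2 were run on recovered reads of 19 libraries, since in VAD *Stra6-/-* replicate 1 the step lies near 1; read totals, the filter and the *Muc5ac* ratio use all 20. The labels call the samples replicates, and library pairs differed far beyond counting noise (chi-square per gene 3.35 to 194).

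limma 3.58.1 (R 4.3.3, trend) was fitted to log2(value + 1) with 4 group means over 18807 genes. Alternatives were edgeR 4.0.16, DESeq2 1.42.0, TMM factors, pseudocounts of 0.5 and 4, other filters, a replicate block, only the groups compared, other reference genes, a fold threshold and leaving out libraries. The test was tested on simulated data for VAD *Stra6-/-* against VAD WT over 18262 genes, where it recovered 71 of 100 genes changed by 1 and 92 of 100 changed by 2 (log2), with 7 false calls. Positions, exons and coding sequences are from GENCODE vM21.

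The mucins and the 10 gene lists were chosen with earlier results of these data known. From each list at most 3 genes per comparison and direction were named, by the size of the change among called genes, and for each mucin the 3 genes nearest in pattern. *Muc3*, *Muc3a*, *Muc17* and *Mucl3* were listed but not analysed here, nor was a row named *Muc21*.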

Additional observations from a re-analysis of the deposited data

Results flagged for a closer look

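A library far from the other 4 of its group was found in 4 of 24 sets of a mucin in a group, where chance flags about 1 in 20. These were *Muc1* in VAD *Stra6-/-* replicate 5, with a normalized value of 143, and *Muc20* in the same library, with 88.8. In VAS *Stra6-/-* replicate 3, *Muc4* was 41576 and *Muc5ac* was 61.0. The mucins were measured in the same libraries, so the sets are not independent and 1 in 20 is only a rough guide. The diet effect differed between the genotypes as labelled for all 6 mucins, by the interaction in limma, with log2 values of -2.48 for *Muc1*, -5.57 for *Muc4*, -4.29 for *Muc5ac* (adjusted p = 0.0108), -5.21 for *Muc15*, -4.86 for *Muc20* and -6.50 for *Gm9573*. By its level alone, *Stra6* does not follow the label in the libraries labelled VAD *Stra6-/-*, and this direction carries that limit.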

How the results depend on the processing

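When 1 library was left out, the number of mucins called was 1 to 3 in VAS *Stra6-/-* against VAS WT, 3 in each case in VAD WT against VAS WT and 6 in each case in the other 3 tests. It was 2 without VAD WT replicate 2 or VAD *Stra6-/-* replicate 5 and 3 without VAD WT replicate 4. In VAS *Stra6-/-* against VAS WT (1 called) it was 3 without VAD WT replicates 2 and 4, 4 without replicates 1, 3 and 5, 5 with only the 2 groups, 2 by edgeR, 2 by DESeq2 and 0 with a log2 threshold of 2 added (by limma, 3 mucins had an unadjusted p under 0.05). For VAD WT against VAS WT the number was 5 without either set of VAD WT libraries and 1 with that threshold. *Muc5ac* there turned from -0.65 to 2.16 without replicates 1, 3 and 5. Over all genes the calls in VAS *Stra6-/-* against VAS WT, 5010, were 7524, 7913, 8208 with only the 2 groups, 207 with the threshold and 4282 to 5575 with 1 library left out. Those in VAD WT against VAS WT, 1652, were 7124, 6164, 639 with only the 2 groups, 77 with the threshold and 1260 to 2651, the last without VAD WT replicate 4. The other tests gave 1707, 1952 and 1960 with the threshold, against 10004, 10504 and 8319. The cause was not tested.

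The replicate numbers are shared by the groups and pair no libraries, since correlations of same-numbered deviations were -0.0686 to 0.0654 (0 of 30 over 0.1). With the replicate block 1, 3, 6, 6 and 6 mucins and 4820, 1446, 9937, 10423 and 8193 genes were called in the 5 tests, and no mucin changed its call.

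Relative to surface epithelium genes, VAS *Stra6-/-* against VAS WT (2 called) gave 4 without VAD WT replicates 2 and 4, 4 without 1, 3 and 5, 0 with corneal and 6 with conjunctival genes as reference. VAD WT against VAS WT (3 called) gave 5 without replicates 1, 3 and 5 and 5 with conjunctival genes. VAD *Stra6-/-* against VAS *Stra6-/-* (3 called) gave 5 with conjunctival genes and 3 to 4 with 1 library left out, and the first comparison gave 2 to 3. With conjunctival genes the sign turned for *Muc1* (0.47), *Muc4* (1.29), *Muc15* (1.40) and *Muc20* (0.83) in VAS *Stra6-/-*, *Muc4* (0.48), *Muc20* (0.53) and *Gm9573* (1.14) in VAD WT, and *Muc1* in VAD *Stra6-/-* against VAD WT (-0.11) and in the interaction (-0.59). With corneal genes it turned in VAD *Stra6-/-* against VAS *Stra6-/-* for *Muc1* (1.67), *Muc15* (1.29) and *Muc20* (0.34), against VAD WT for *Muc4* (1.42), *Muc15* (1.89), *Muc20* (1.66) and *Gm9573* (0.97), and in the interaction for *Muc4* (1.39), *Muc15* (1.75), *Muc20* (2.10) and *Gm9573* (0.46). Without VAD WT replicates 1, 3 and 5, chosen after seeing the data, relative *Muc5ac* was 2.86 in VAD WT, -2.55 in VAD *Stra6-/-* against VAD WT and -3.35 in the interaction. Depth limits *Muc5ac*, with 0 to 86 reads per library.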

Other observations

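Of 14 listed mucins outside the ocular surface set 9 were tested, and in the libraries labelled VAD *Stra6-/-* against VAS *Stra6-/-* 4 fell and 3 rose. The share called was 77.8% of the 9, against 53.2% of all genes, and 44.4% were called lower, against 28.8% of all genes. Against VAD WT 2 fell and 3 rose, a share of 55.6%, near the 55.9% of all genes called. *Muc2*, the gel-forming mucin of the gut, had normalized values of 32.6 ± 18.0 (SD, n = 5) in VAS WT, 84.2 ± 38.2 in VAD WT, 25.8 ± 10.5 in VAS *Stra6-/-* and 3.69 ± 5.29 in the libraries labelled VAD *Stra6-/-*, where it fell, with log2 fold changes of -3.34 and -4.97 against VAS *Stra6-/-* and VAD WT (adjusted p = 1.54e-04 and 1.11e-06, limma). *Muc13* fell by 3.55 and 2.03 in the same comparisons, and *Muc19* fell by 2.19 in the first. *Muc5b* had no read in these 5 libraries and was at least 3.48-fold lower than in VAS *Stra6-/-*. Those that rose against VAS *Stra6-/-* were *Emcn*, a marker of capillary endothelium, *Mcam* and *Cd164*. *Emcn* was at 2922 ± 168 against 1276 ± 52.6 in VAS *Stra6-/-*, a rise of 1.19, while *Mcam* rose by 0.88 and *Cd164* by 0.44. *Cd164* also rose in VAS *Stra6-/-* against VAS WT, by 0.78. In VAD WT against VAS WT limma called none of the 9 (3 at an unadjusted p under 0.05, 0 by edgeR or DESeq2). The endothelial genes *Kdr* and *Pecam1* rose by 1.60 and 0.89 in the libraries labelled VAD *Stra6-/-* against VAS *Stra6-/-*, 2 of 4 listed. *Cdh5* at -0.15 (adjusted p = 0.693, limma) and *Plvap* at 0.23 (adjusted p = 0.455, limma) were not called. The share called, 50% of the list, lies near the 53.2% of all genes called. The part of endothelial genes in these values was not tested.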
